A study of Mus musculus with 27 samples.

Results

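The nuclei described here are nuclei of mouse hippocampal dissections that passed a filter on excitatory neuron genes and carry Foxp2 RNA together with genes used to mark layer 6 corticothalamic neurons, and they are called Foxp2 nuclei below. They were selected among 241938 nuclear barcodes of 27 single-nucleus RNA-seq libraries, and 8890 nuclei met the rule. A nucleus needed 200 to 8000 detected genes, at most 5% mitochondrial UMIs (a UMI is 1 captured RNA molecule) and at least 1 UMI of Slc17a7 or Camk2a, which mark excitatory neurons. It also needed at least 2 Foxp2 UMIs and at least 4 of the 7 genes Syt6, Hs3st4, Cobll1, Rai14, Garnl3, Hs3st5 and Grik3 detected. Nuclei with more than 1 of the layer 6b genes Cplx3, Nxph4 and Ctgf, with more than 1 UMI of the inhibitory genes Gad1 and Gad2, or with more than 1 UMI of the myelin genes Mog and Mag were left out. In all, 122069 nuclei had a Slc17a7 or Camk2a UMI and passed the limits on detected genes, mitochondrial UMIs, inhibitory genes and myelin genes. They are called excitatory nuclei, and the 113179 of them that did not meet the full rule are called other excitatory nuclei.

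Each library came from the hippocampi of 1 mouse aged 8 to 10 months, and the mice were littermates that carried or lacked the P301S transgene (mutant human tau under the mouse Prnp promoter) and had both, 1 or no functional alleles of Cgas, whose product senses DNA in the cytosol. The tau-free libraries were Cgas+/+ from 3 males and 2 females, Cgas+/- from 2 males and Cgas-/- from 2 other males. P301S Cgas+/+, P301S Cgas+/- and P301S Cgas-/- were each represented by 6 libraries, 3 from males and 3 from females. The Cgas deletion was present in all cells of the animal, and the series examined how loss of Cgas alters the response of brain cells to tau.

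Layer 6 corticothalamic neurons are the projection neurons of the deepest cortical layer whose axons return to the thalamus and regulate its relay cells. FOXP2, TBR1, TLE4 and SOX5 are transcription factors of these neurons, SYT6 is a synaptotagmin, GRIK3 is a kainate receptor subunit, and HS3ST4 and HS3ST5 add sulfate groups to heparan sulfate chains. They are cells of the neocortex, so their nuclei enter a hippocampal dissection only with adjoining cortex, and Foxp2 is also known from other deep cortical, subicular, thalamic and striatal neurons.

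All 27 libraries contained Foxp2 nuclei, but their number differed widely, from 21 to 848 with a median of 320. They made up 0.583% to 17.4% of the excitatory nuclei of a library, with a median of 6.61%. The median UMI count per Foxp2 nucleus ranged from 7381 to 12620.5 between libraries, and the summed UMI count behind the levels from 244480 to 8489336. Levels are given as CPM, the UMIs of a gene per 1000000 UMIs summed over the nuclei of 1 class in 1 library. Genes of the sex chromosomes matched the labelled sex in 27 of 27 libraries, with Xist at 658 to 898 CPM in females and no higher than 1.54 CPM in any male. Cgas, listed in the files as Mb21d1, was at 0 to 2.60 CPM in Foxp2 nuclei and at 0.364 to 1.45 CPM in the libraries labelled P301S Cgas-/-, within the range of the other groups. The files do not show which part of the gene these UMIs came from, so Cgas RNA gives no check of the labels. In P301S Cgas+/+ replicate 3, other excitatory nuclei had a median of 1818 UMIs, the lowest of any library, while its 33 Foxp2 nuclei had a median of 12110. Of the 8879 different barcode sequences of Foxp2 nuclei, 11 occurred in more than 1 library, and 0 such pairs had the same counts.

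The rule used the 8 genes that define the nuclei, so their levels are a description without a test. Foxp2 (chromosome 6, 14901349 to 15441977, GRCm38) was at 330 to 829 CPM in the 27 libraries, with a mean of 482 CPM in Foxp2 nuclei and 19.8 CPM in other excitatory nuclei. Syt6 averaged 59.4 CPM against 4.82 CPM, Hs3st4 averaged 4144 CPM against 991 CPM, and Grik3 averaged 731 CPM against 142 CPM. All 4 were higher in Foxp2 nuclei in 27 of 27 libraries. At the thresholds, the 2238 Foxp2 nuclei with exactly 2 Foxp2 UMIs had a Syt6 UMI in 11.7% of cases, and the 3512 nuclei with 1 Foxp2 UMI that otherwise met the marker count in 7.69%. The 2049 nuclei with exactly 4 of the 7 marker genes had a Syt6 UMI in 6.93% of cases, and the 904 nuclei with 3 of them in 8.96%.

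Genes that the rule did not name gave a mixed picture of the label. Of 15 further layer 6 corticothalamic genes, 12 had a mean of at least 10 CPM in Foxp2 nuclei, and all 12 were higher there than in other excitatory nuclei, 6 of them at least 2-fold, with a median ratio of 2.25. The median ratio over the 3219 genes of at least 50 CPM in Foxp2 nuclei was 1.03. Other excitatory nuclei are all remaining excitatory nuclei of these hippocampal dissections. The ratios therefore do not set Foxp2 nuclei against other cortical neurons alone. Tle4, a corepressor of layer 6, averaged 390 ± 75.7 CPM (SD, n = 27) against 106 ± 12.9 CPM in other excitatory nuclei. Tbr1, a transcription factor needed for layer 6 identity, averaged 23.6 ± 5.90 CPM against 6.72 ± 2.35 CPM. Fezf2, a transcription factor of deep-layer projection neurons, had a ratio of 2.76, and Zfpm2 had a ratio of 2.59. Ntsr1, the neurotensin receptor gene that marks corticothalamic neurons in mouse lines, averaged 9.76 ± 5.29 CPM against 7.68 ± 3.51 CPM and was higher in 15 of 27 libraries only.

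Genes of other cell types were in part lower and in part higher than in other excitatory nuclei. Cux2, a transcription factor of upper cortical layers, averaged 20.8 CPM in Foxp2 nuclei and 142 CPM in other excitatory nuclei. The summed level of 8 layer 2 to 4 genes differed less, with medians over libraries of 243 against 420 CPM. Of the 4 with a mean of at least 10 CPM in Foxp2 nuclei, 1 was higher there. Layer 6b type nuclei, which carried at least 2 of Cplx3, Nxph4 and Ctgf and numbered 375, had Ctgf at 164 CPM (mean of 15 libraries), whereas Foxp2 nuclei had it at 4.26 CPM, a gene the rule limits. Svil, another layer 6b gene, was at 525 CPM in layer 6b type nuclei and at 66.1 CPM in Foxp2 nuclei, against 26.7 CPM in other excitatory nuclei. The summed level of the 5 layer 6b genes had a median of 73.5 CPM over libraries in Foxp2 nuclei and 36.1 CPM in other excitatory nuclei. For the layer 5 extratelencephalic genes these medians were 152 and 141 CPM. Medians were also higher for the astrocyte genes (907 against 687 CPM; of 5 genes Slc1a2 was higher, with means of 842 against 541 CPM, and the other 4 were lower, Slc1a3 at 33.2 against 118 CPM), the near-projecting genes (1538.5 against 1289 CPM) and the striatal neuron genes (39.3 against 25.7 CPM). Summed over their lists, inhibitory neuron genes were at 6.57 to 41.3 CPM, oligodendrocyte genes at 44.99 to 175 CPM and microglia genes at 18.5 to 61.0 CPM in the Foxp2 nuclei of the 27 libraries, with medians of 14.9, 103 and 35.4 CPM against 40.1, 158 and 64.0 CPM in other excitatory nuclei.

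Among genes with a mean of at least 50 CPM in Foxp2 nuclei, 111 were at least 2-fold higher there than in other excitatory nuclei. Another 95 were at most at 0.5 of the level in other excitatory nuclei. Genes under 50 CPM in Foxp2 nuclei entered neither count, nor the ranking of ratios below. That limit removes genes that are low in Foxp2 nuclei, so the 2 counts cannot be set against each other. Beyond the rule genes, the highest ratios belonged to Ror2 (15.2), a WNT5A receptor, Arhgap25 (8.81), a RAC GTPase activator, and Cntnap4 (7.89), a synaptic adhesion protein of the neurexin superfamily. Col5a1, a fibrillar collagen, had a ratio of 7.55, and Cdh18, a cadherin, averaged 1972 CPM against 283 CPM for a ratio of 6.97. These 5 genes were higher in 27 of 27 libraries.

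**Figure D1:**
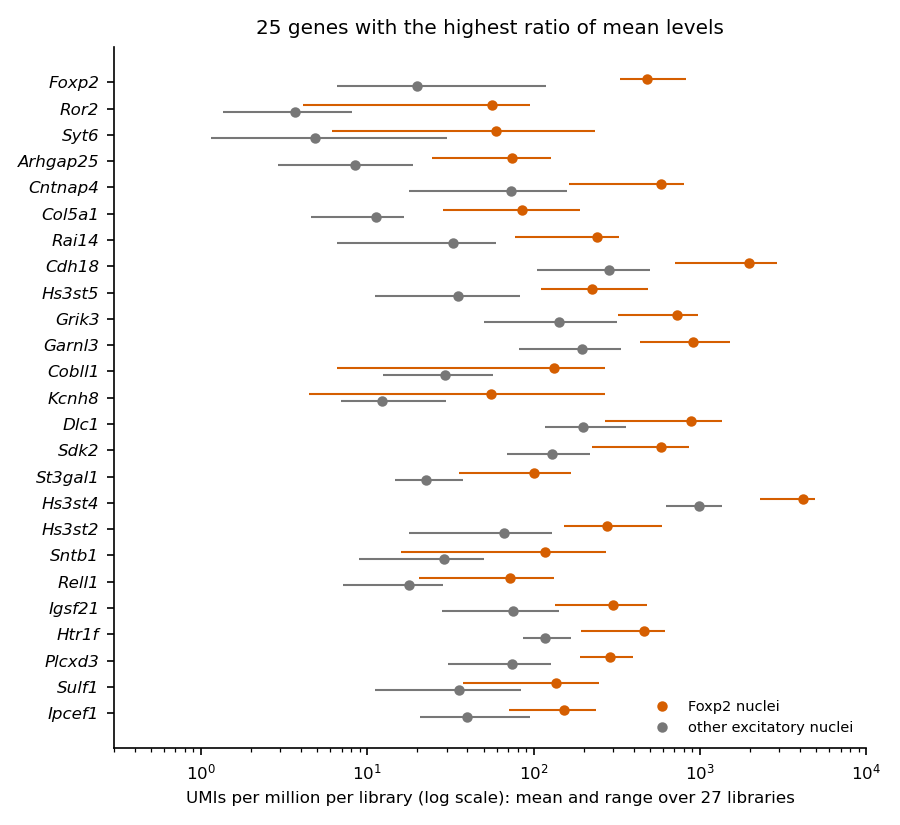
Levels of the 25 genes with the highest ratio of mean levels among genes of at least 50 CPM in Foxp2 nuclei. The log axis gives CPM in Foxp2 nuclei (orange) and other excitatory nuclei (grey). Points are means and lines the range over 27 libraries. The ranges of Foxp2, Ror2 and Syt6 differ in width, and Syt6 spans 6.12 to 234 CPM within Foxp2 nuclei.

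Receptors for glutamate and neuromodulators included genes of high and of low ratio, given as a description. Htr1f, a serotonin receptor, averaged 460 ± 81.3 CPM (SD, n = 27) against 118 ± 22.7 CPM. Chrna5 and Chrna4, subunits of nicotinic receptors, had ratios of 3.84 and 3.38, and Oprm1, the mu opioid receptor, had a ratio of 3.71. The metabotropic glutamate receptors Grm8 and Grm3 had ratios of 3.01 and 2.54. In contrast, the AMPA receptor subunit Gria1 averaged 1192 CPM in Foxp2 nuclei against 2927 CPM, and the mineralocorticoid receptor Nr3c2 was at 0.332 of the level there. Among potassium channel genes, Kcnb2 was at 0.33 and Kcnip4 at 0.34 of the level in other excitatory nuclei, and neither was higher in any library.

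Enzymes of heparan sulfate sulfation formed a group with both high and low members. Of 17 such genes outside the rule, 13 had a mean of at least 10 CPM in Foxp2 nuclei. Of these, 7 were higher in Foxp2 nuclei than in other excitatory nuclei, 2 at least 2-fold. Hs3st5 and Hs3st4, which the rule used, are left out of these counts. Hs3st2, outside the rule, averaged 276 CPM against 66.1 CPM, and Sulf1, a sulfatase that removes sulfate from these chains, averaged 136 CPM against 35.3 CPM. Hs6st3, a 6-O-sulfotransferase, was lower, at 685 CPM against 2632 CPM.

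The Foxp2 nuclei were not uniform. A Syt6 UMI was found in 2783 of 8890 nuclei (31.3%) and in 2.34% of other excitatory nuclei. Median depths were 10735 UMIs in Foxp2 nuclei with a Syt6 UMI and 9648 UMIs in those without. All other excitatory nuclei, with or without a Syt6 UMI, had a median of 8694 UMIs. Cobll1 was detected in 41.7% of Foxp2 nuclei, Hs3st4 in 99.6% and Grik3 in 98.9%. Between libraries, the share with a Syt6 UMI ran from 5.71% to 62.9%, and from 2.91% to 52.7% when each nucleus was thinned to 5000 UMIs. With UMIs pooled over all 27 libraries, Mef2c was at 561 CPM in the nuclei with a Syt6 UMI and 240 CPM in those without. Libraries with more such nuclei weigh more in these pooled levels. Mef2c was higher in nuclei with a Syt6 UMI in 22 of the 23 libraries with at least 10 nuclei of each kind. MEF2C is a transcription factor of neurons that regulates synapse number. Pooled in the same way, Blnk, a signalling adaptor known from B cells, was at 58.1 CPM against 13.5 CPM. Maml3, a coactivator of Notch signalling, was at 459 CPM against 122 CPM. Tshz2, a zinc finger gene of near-projecting cortical neurons, went the other way, with pooled levels of 308 CPM against 1622 CPM. It was lower in 23 of 23 libraries. Kcnh8, a potassium channel, had pooled levels of 3.76 CPM against 57.5 CPM.

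Leiden clustering divided the Foxp2 nuclei into 17 subclusters, numbered 0 to 16 and left unnamed. Subcluster 14 (1395 nuclei) was led by Blnk, Cpa6 and Sla, and subcluster 16 (1247 nuclei) by Maml3, Chn2 and Arhgap31. Together with subcluster 13 (94 nuclei), these were the 3 subclusters with Syt6 at 100 CPM or more, and they held 30.8% of all Foxp2 nuclei. Subcluster 13 was led by Rarb, Ankfn1 and Unc13c and had Drd2, a dopamine receptor of striatal neurons, at 101.1 CPM, Tbr1 at 1.11 CPM and Slc17a7, the vesicular glutamate transporter of cortical neurons, at 29.99 CPM, against 116 to 210 CPM of Slc17a7 in the other subclusters. These values go against the excitatory label for its 94 nuclei, and 36.2% of its nuclei came from P301S Cgas+/- replicate 1. At the other end, 4 subclusters with Syt6 under 10 CPM held 2855 nuclei (32.1%). Of these, subcluster 0 (1508 nuclei) was led by Dkk2, a WNT inhibitor, subcluster 2 (533) by Kcnh8, subcluster 5 (399) by Sema3c and subcluster 6 (415) by Arhgap6. Tle4 stayed between 406 and 602 CPM in these 4 subclusters and was 354 and 467 CPM in subclusters 14 and 16. Other layer 6 corticothalamic genes differed more. Zfpm2 was at 1629, 1128, 828 and 196 CPM in subclusters 0, 2, 5 and 6. In subclusters 14 and 16 it was at 1851 and 1356 CPM. Tbr1 was at 31.7, 17.99, 27.6 and 19.0 CPM in the same 4 subclusters, against 30.4 and 29.9 CPM in subclusters 14 and 16. Tshz2 was at 15.1 CPM in subcluster 16 and 5047 CPM in subcluster 6.

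Likely doublets were unevenly spread over the subclusters. Scrublet scores marked 684 Foxp2 nuclei (7.69%) as likely doublets, against 6.69% of all excitatory nuclei. In 5 subclusters, with 697 nuclei (7.84%), more than 50% were so marked, and their leading genes included Slc1a3 of astrocytes (subcluster 8), Ttr of the choroid plexus (subcluster 9), Pdgfra of oligodendrocyte progenitors (subcluster 12) and Mobp of oligodendrocytes (subcluster 15). In the largest subclusters, 0, 1, 14 and 16, no nucleus was marked.

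**Figure D2:**
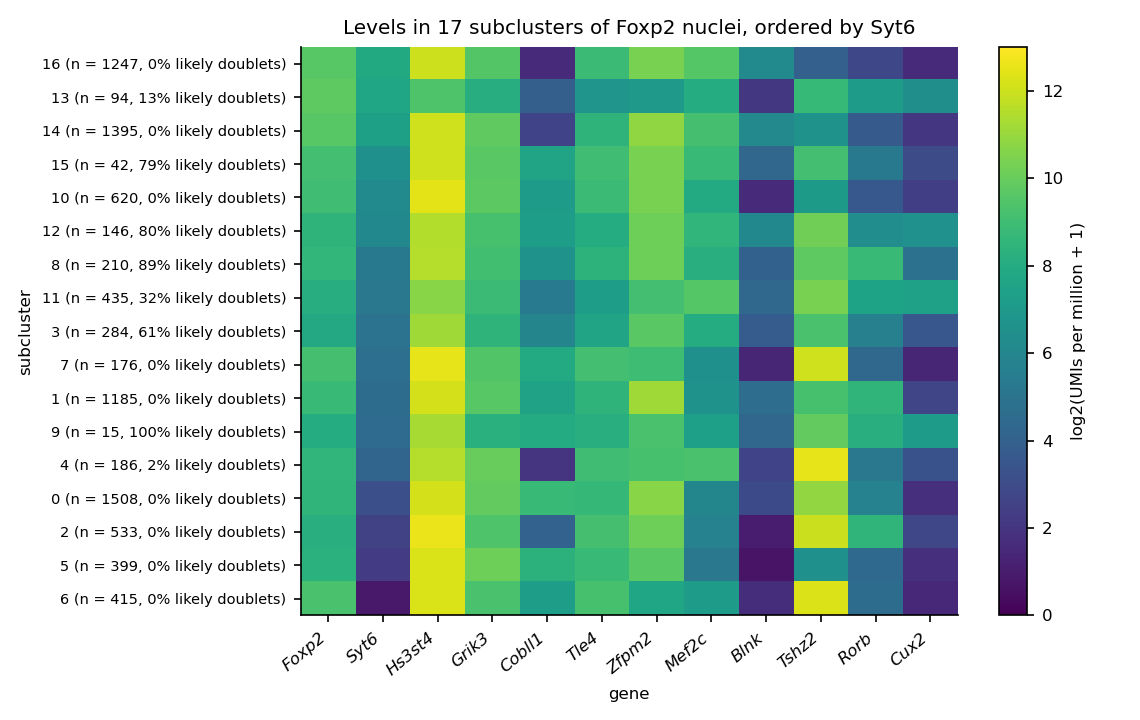
Heat map of 12 genes (columns) in the 17 subclusters of Foxp2 nuclei (rows, ordered by Syt6), with colour giving log2(CPM + 1); row labels give the number of nuclei and the percentage marked as likely doublets. Hs3st4 is high in nearly every row, whereas Syt6, Mef2c, Blnk and Tshz2 differ between rows, with Tshz2 from 15.1 to 5841 CPM.

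The 3 subclusters with Syt6 at 100 CPM or more held 0.870% to 12.2% of the Foxp2 nuclei of a Cgas+/+ library and 1.73% to 31.1% of those of a P301S Cgas+/+ library, and these groups overlapped. In P301S Cgas+/- they held 2.77% to 77.5% and in P301S Cgas-/- 1.30% to 47.3%. Without subcluster 13, a choice made after seeing the data, the ranges were 0.435% to 8.54%, 1.73% to 30.4%, 2.46% to 71.9% and 1.30% to 45.6% in the same order. For Syt6 detection, in Cgas+/+ libraries, 6.09% to 11.9% of Foxp2 nuclei had a Syt6 UMI, and in P301S Cgas+/+ libraries 12.99% to 37.9%, so these groups did not overlap. P301S Cgas+/- libraries ranged from 11.1% to 62.9% and P301S Cgas-/- libraries from 11.04% to 46.5%, and both overlapped P301S Cgas+/+. The 2 Cgas+/- libraries had 5.91% and 54.7%, and the 2 Cgas-/- libraries had 23.8% and 5.71%. In Cgas-/- replicate 1, which had the 23.8%, 8 of 21 Foxp2 nuclei belonged to subcluster 13. That subcluster was kept in these detection shares and in the gene comparisons below. Syt6 belongs to the rule, so these shares were not tested. After thinning to 5000 UMIs, the Cgas+/+ libraries had 4.09% to 7.69% and the P301S Cgas+/+ libraries 7.56% to 28.6%, so that P301S Cgas+/+ replicate 2 fell within the Cgas+/+ range. In other excitatory nuclei the thinned share was 0.380% to 6.33% over the 27 libraries.

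The share of Foxp2 nuclei among excitatory nuclei was compared between groups over mice. In the Cgas+/+ libraries it was 5.09%, 2.47%, 10.9%, 9.58% and 4.97%, and in the P301S Cgas+/+ libraries it ran from 0.615% to 10.1%. The 3 female P301S Cgas+/+ libraries had 0.615%, 0.748% and 1.42%, with 33, 29 and 78 Foxp2 nuclei, and lay below every other library of the 4 main groups. P301S Cgas+/- libraries ranged from 6.58% to 14.4% and P301S Cgas-/- libraries from 5.96% to 17.4%. The mean was 6.61% ± 3.52 (SD, n = 5) for Cgas+/+ and 4.30% ± 4.04 (n = 6) for P301S Cgas+/+. P301S Cgas+/- averaged 10.5% ± 3.61 (n = 6), and the average of P301S Cgas-/- was 10.3% ± 4.31 (n = 6). By exact two-sided permutation tests, P301S Cgas-/- was 5.96 points above P301S Cgas+/+ (p = 0.0390, and 0.117 after Benjamini-Hochberg adjustment over 6 tests). P301S Cgas+/- was 6.18 points above it (exact permutation p = 0.0238, adjusted 0.117), and P301S Cgas+/+ was 2.31 points below Cgas+/+ (exact permutation p = 0.342, adjusted 0.513). None passed the adjustment. Without P301S Cgas+/+ replicate 1, the 2 larger differences were 7.12 and 7.34 points, with an adjusted exact permutation p of 0.0455 each. No other single library left out gave an adjusted p under 0.05, and the exact permutation p for P301S Cgas-/- ranged up to 0.0823 (adjusted 0.247), without P301S Cgas+/+ replicate 3 or 4. With nuclei thinned to 5000 UMIs the differences were 3.99 points for P301S Cgas-/- (exact permutation p = 0.0563), 4.85 for P301S Cgas+/- (0.0476) and -0.87 for tau (0.584), and none passed the adjustment. Under a looser rule, with at least 1 Foxp2 UMI and 3 of the 7 genes, they were 8.19, 8.43 and -3.80 points. Under a stricter rule, with at least 3 Foxp2 UMIs and 5 of the 7 genes, they were 4.22, 4.76 and -0.94 points, and no adjusted p was under 0.05 with either rule. File headers name 1 of 2 software versions, 3.0.2 in 12 libraries and 3.1.0 in 15. Within header version 3.1.0 the differences from P301S Cgas+/+ were 7.49 points for P301S Cgas-/- and 7.81 points for P301S Cgas+/-, and within version 3.0.2, with 2 libraries a group, 2.90 and 2.92 points. The tau difference was -5.83 points within version 3.1.0 (exact permutation p = 0.0857) and 3.80 points within version 3.0.2 (exact permutation p = 0.667), so its sign differed between them. Other cortical classes were also low in some of these libraries. Rorb type nuclei were excitatory nuclei with at least 2 UMIs of the layer 4 gene Rorb and no Foxp2 UMI. They also had at most 1 Prox1 UMI and at most 1 UMI of Aqp4 and Gja1 together. Rorb type nuclei made up 1.04% and 2.32% of excitatory nuclei in P301S Cgas+/+ replicates 3 and 4, the lowest shares of all 27 libraries, and 4.71% in replicate 5. Layer 6b type nuclei numbered 0, 0 and 1 in these 3 libraries. Other excitatory nuclei of P301S Cgas+/+ replicate 3 had a median of 1818 UMIs, and the part of depth in its Rorb type share was not tested. Cgas-/- replicate 1, with the lowest Foxp2 share of all libraries (0.583%), had a Rorb type share of 6.44% and 0 layer 6b type nuclei. Over the groups, Rorb type shares were 4.43% to 7.45% in Cgas+/+, 1.04% to 8.94% in P301S Cgas+/+, 4.12% to 24.2% in P301S Cgas+/- and 3.99% to 12.5% in P301S Cgas-/-. The part of the amount of cortex dissected in the Foxp2 shares was not tested. The median UMI count per Foxp2 nucleus differed by 531 to 1052 UMIs in the same 3 comparisons, with adjusted exact permutation p from 0.513 to 0.571.

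**Figure D3:**
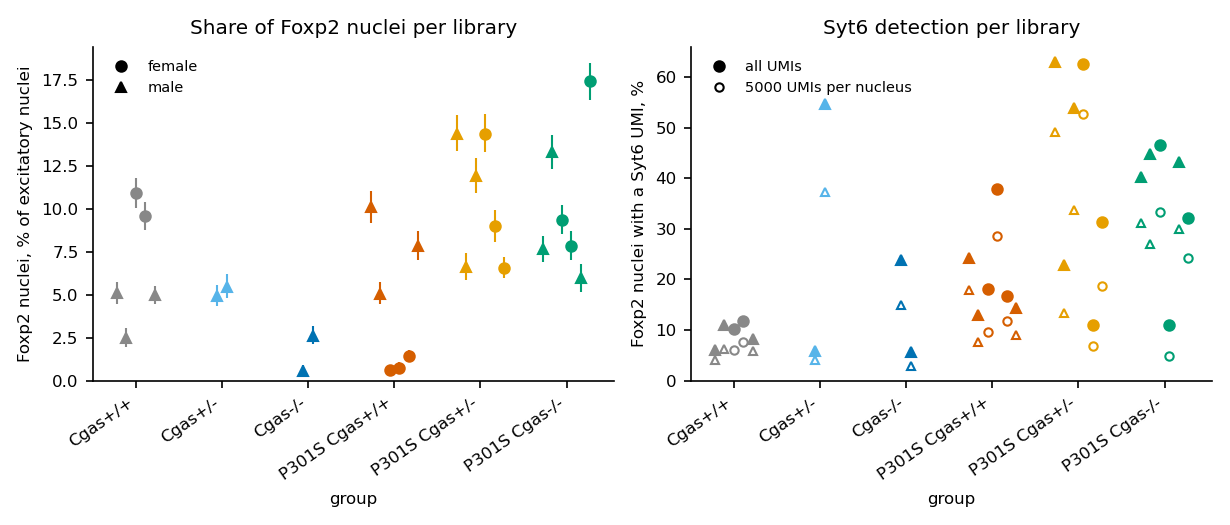
Left, Foxp2 nuclei as a percentage of excitatory nuclei in each of 27 libraries by group, with 95% exact binomial intervals for counting error; right, percentage of Foxp2 nuclei with a Syt6 UMI, from all UMIs (filled) and after thinning to 5000 UMIs per nucleus (open). Circles are females and triangles males; the 3 female P301S Cgas+/+ libraries lie between 0.615% and 1.42% on the left.

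The tau comparison asked which genes of Foxp2 nuclei differ between P301S Cgas+/+ and Cgas+/+ mice. UMI counts were summed per library, and edgeR's quasi-likelihood test with Benjamini-Hochberg adjustment was run over 12811 genes, with 1 fit over the 23 libraries of the 4 main groups. It called 2 genes (0.0156% of those tested), 610 had an unadjusted p under 0.05, and DESeq2 called 7. Gm43049 (ENSMUSG00000105777, a lincRNA on chromosome 3, 140692038 to 140760704, minus strand, GRCm38) was at 16.3, 26.9, 7.50, 10.6, 11.8 and 6.06 CPM in P301S Cgas+/+ libraries. Gm43049 was at 0 in 4 Cgas+/+ libraries and at 0.155 CPM, 1 UMI, in the other. The groups did not overlap, and the ratio of summed levels was 258, with a 95% counting interval of 45.7 to 10258 (162 UMIs against 1). Its edgeR adjusted p was 6.82e-06. The fitted log2 fold change, which depends on the prior count, was 6.97 ± 0.72. After a log2 fold change, here and below, ± gives an approximate standard error derived from the test statistic, not an SD between libraries. It was 9.29 ± 1.21 within header version 3.0.2, with 2 libraries a group (edgeR adjusted p = 0.260), and 6.58 ± 1.55 in nuclei with a Syt6 UMI (0.9998), so the call was lost there while the fold stayed large. Gm43049 belongs to a list of 5 transcripts taken as marks of the transgene, which was drawn up with earlier results of these data known. Its mean level over the 27 libraries was 7.56 CPM in Foxp2 nuclei and 6.93 CPM in other excitatory nuclei, a difference that was not tested. Prn, which overlaps Prnp so that the split of reads between them is uncertain, was the other tested member of that list and had a log2 fold change of 0.78 ± 0.67 (edgeR adjusted p = 0.9999). Mgat4c, a glycosyltransferase that did not pass the threshold, was at 815 to 967 CPM in Cgas+/+ and 1258 to 2137 CPM in P301S Cgas+/+ (log2 fold change 0.86 ± 0.17, edgeR adjusted p = 0.118).

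All 18 P301S and all 9 tau-free libraries were also compared in 1 additive fit with Cgas genotype and sex, which contains the libraries of the previous comparison. edgeR called 4 of 12379 genes (0.0323%), 798 had an unadjusted p under 0.05, and DESeq2 called 17. Gm43049 was at 3.64 to 26.9 CPM in P301S libraries with a median of 8.50, and at 0 to 0.155 CPM in tau-free libraries (edgeR adjusted p = 3.72e-10). All 18 P301S libraries lay above all 9 others. Gsap (chromosome 5, 21186255 to 21315132), whose product activates gamma-secretase, was at 5.72 to 15 CPM with a median of 10.1 in P301S libraries and at 2.71 to 6.99 CPM with a median of 4.66 in tau-free ones. Only 2 P301S libraries fell within the tau-free range, and the log2 fold change was 1.13 ± 0.19 (edgeR adjusted p = 0.00622). Fibcd1 (chromosome 2, 31813290 to 31846005), an acetyl-group-binding receptor of the cell surface, was at 0.364 to 4.72 CPM with a median of 1.36 in P301S libraries and at 1.36 to 11.7 CPM with a median of 5.24 in tau-free ones. In 9 of 18 P301S libraries it was below every tau-free library, and it fell by 2.06 on the log2 scale (edgeR adjusted p = 0.00034). Kcnn3 (chromosome 3, 89520164 to 89675132), a small-conductance calcium-activated potassium channel, was at 31.7 to 105 CPM with a median of 52.0 in P301S libraries and at 64.9 to 180 CPM with a median of 121 in tau-free ones. It was below every tau-free library in 12 of 18 P301S libraries and fell by 0.93 on the log2 scale (edgeR adjusted p = 0.0169).

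**Figure D4:**
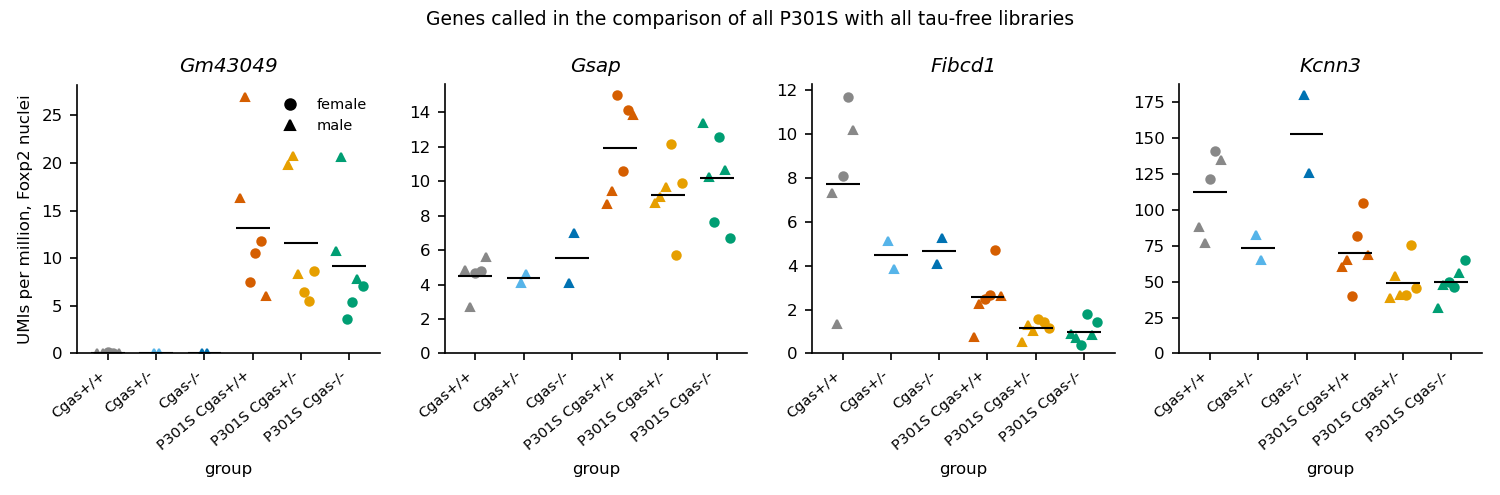
Level of Gm43049, Gsap, Fibcd1 and Kcnn3 in Foxp2 nuclei, in CPM, for each of 27 libraries by group; circles are females, triangles males and black bars group means. Gm43049 is at or near 0 in all 9 tau-free libraries, and Kcnn3 is at 64.9 CPM or more in each of them.

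These calls differed in how far they depended on the set of nuclei and libraries. Gm43049 was called in 41 of 41 other settings of the pooled comparison. Fibcd1 kept its call in 35 of these settings, lost it in 3 and had no result in the rest. It lost the call within each of the 2 software versions named in the file headers (log2 fold change -1.63 in 3.1.0 and -2.32 in 3.0.2). The third was the looser rule (-1.31), against -2.06 in the full set. With at most 4000 genes per nucleus, and in nuclei with a Syt6 UMI, 0 genes were called lower. Gsap lost its call in 9 settings. Among them were likely doublets removed (log2 fold change 1.02, edgeR adjusted p = 0.509) and nuclei of at most 4000 genes (0.75, edgeR adjusted p = 0.786). Kcnn3 lost it in 9 settings too, including without Cgas+/- replicate 1 (log2 fold change -0.93, edgeR adjusted p = 0.055) and without Cgas-/- replicate 2 (-0.86, edgeR adjusted p = 0.115), and its log2 fold change in these 9 settings ran from -0.99 to -0.66. Among genes that did not pass, Unc5c, a netrin receptor gene, had a log2 fold change of -1.004 ± 0.21 (edgeR adjusted p = 0.162) and was below all tau-free libraries in 9 of 18 P301S libraries. Unc5c lies on chromosome 3 at 141465216 to 141834924, near Gm43049 at 140692038 to 140760704. The part of this position in its difference was not tested. Ugt8a, an enzyme of myelin lipid synthesis, had 1.43 ± 0.31 (edgeR adjusted p = 0.162).

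Interferon-stimulated genes, which respond to type I interferon, lay mostly above 0 in the tau comparison without any call. Of 34 genes listed, 16 were tested, 15 had a positive log2 fold change and 0 passed, and the median was 0.38 against -0.01 over all genes tested, of which 47.7% were positive. With an unadjusted p under 0.05, 6 of the 16 were higher, where 2.39% of all genes were. Ddx60, an antiviral helicase, was at 0 to 0.974 CPM in Cgas+/+ and 0 to 8.25 CPM in P301S Cgas+/+ libraries (log2 fold change 3.33 ± 0.84, edgeR adjusted p = 0.641). Rnf213, a ubiquitin ligase, was at 0 to 1.97 CPM and 2.24 to 12.97 CPM (1.79 ± 0.50, edgeR adjusted p = 0.794). P301S Cgas+/+ replicates 3 and 4 had 399976 and 378045 summed UMIs, so that a single Rnf213 UMI there lies above the Cgas+/+ range. Eif2ak2, the kinase activated by double-stranded RNA, was at 27.1 CPM in P301S Cgas+/+ replicate 5 alone and at most 5.29 CPM in the other 5. Over all 27 libraries, 15 of these genes were tested, 13 were positive, against 49.8% of all genes there, and the median was 0.38. In P301S Cgas-/- against P301S Cgas+/+ the median was -0.07, and in P301S Cgas+/- it was -0.14. Both signs turned with the setting, since the medians ranged from -0.32 (within version 3.1.0) to 0.11 (at least 100 Foxp2 nuclei per library) and from -0.39 (looser rule) to 0.31 (within version 3.0.2).

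Markers of other cells had differences in the same comparisons, without a call. Pdgfra, Cspg4 and Vcan, the markers of oligodendrocyte progenitors, had a median log2 fold change of 1.77 in the tau comparison, -1.49 for P301S Cgas-/- and -1.53 for P301S Cgas+/- against P301S Cgas+/+, and 3 of 3 had an unadjusted p under 0.05 in each. Their summed level was 11.5 to 13.6 CPM in Cgas+/+, 19.1 to 143 CPM in P301S Cgas+/+, 9.40 to 22.9 CPM in P301S Cgas+/- and 9.47 to 30.5 CPM in P301S Cgas-/-. P301S Cgas+/+ replicate 4, with 29 Foxp2 nuclei, was the highest. Of all 12811 genes tested, 306 (2.39%) were higher and 304 lower for tau at an unadjusted p under 0.05. At that p, 463 (3.61%) were lower for P301S Cgas-/- and 529 (4.13%) for P301S Cgas+/-. The choroid plexus genes Ttr and Kl had a median of -2.32 for P301S Cgas-/-, with 2 of 2 at an unadjusted p under 0.05, -1.33 for P301S Cgas+/- and 0.47 for tau. The tau median was 3.89 within version 3.1.0 and -3.38 within version 3.0.2, and that for P301S Cgas+/- ranged from -2.02 without P301S Cgas+/- replicate 3 to 1.25 in nuclei with a Syt6 UMI, where 1 gene was tested. With at least 100 Foxp2 nuclei per library the median for P301S Cgas-/- was -1.17, with 0 of 2 at that p. The summed level of the choroid plexus list was 6.06 to 149 CPM in Cgas+/+, 7.38 to 129 CPM in P301S Cgas+/+, 3.11 to 41.6 CPM in P301S Cgas+/- and 4.32 to 24.8 CPM in P301S Cgas-/-, and the groups overlapped. Of 5 genes of CA1 pyramidal neurons, 3 (Fibcd1, Mpped1 and Dcn) were lower for tau at an unadjusted p under 0.05, and the median was -0.39, which ranged from -1.03 with likely doublets removed to 0.48 within version 3.0.2, where 3 were tested. Their summed level was 313 to 451 CPM in Cgas+/+ and 218 to 383 CPM in P301S Cgas+/+. Fibcd1, called over all 27 libraries, is thus also a CA1 marker. Astrocyte genes had a median of 0.65, oligodendrocyte genes of 0.74 and microglia genes of 0.23 in the tau comparison, and each of these signs turned in some setting, with ranges of -0.27 to 1.49, -0.05 to 1.22 and -0.46 to 0.48. The 4 tested thalamic genes, Tcf7l2, Lef1, Slc17a6 and Rora, had a median of 0.96 for tau, with 4 of 4 positive, -0.59 for P301S Cgas-/- and -0.98 for P301S Cgas+/-. For P301S Cgas-/- that median was 0.037 with at least 100 Foxp2 nuclei per library, and -0.14 over 3 genes with likely doublets removed. The summed level of the list was 1100 to 1332 CPM in Cgas+/+, 1089 to 1772 CPM in P301S Cgas+/+, 962 to 1264 CPM in P301S Cgas+/- and 1048 to 1498 CPM in P301S Cgas-/-, so these groups overlapped. With only libraries of at least 100 Foxp2 nuclei, the median of the interferon-stimulated genes was 0.16, that of the progenitor genes 1.05 and that of the astrocyte genes -0.01. With likely doublets removed, 13 interferon-stimulated genes were tested with a median of 0.36. The part of RNA from other cells in these differences was not tested.

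The comparisons for loss of Cgas in P301S mice gave no call with edgeR, while DESeq2 made calls in both. Comparing P301S Cgas-/- with P301S Cgas+/+, edgeR called 0 of 12811 genes (0%), 874 had an unadjusted p under 0.05, the smallest adjusted p was 0.441, and DESeq2 called 16. Comparing P301S Cgas+/- with P301S Cgas+/+, edgeR called 0 (0%), 1014 had an unadjusted p under 0.05, the smallest adjusted p was 0.303, and DESeq2 called 17. P301S Cgas+/+ replicate 1 bore on both counts, since without it edgeR called 6 and 12 genes. Without P301S Cgas+/+ replicate 2 it called 1 gene in each comparison, and without P301S Cgas+/- replicate 5 it called 3 in the heterozygous one. Both comparisons share the 6 P301S Cgas+/+ libraries, so their values are given side by side and not as a repeat of each other.

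Blnk had the smallest p among the higher genes for P301S Cgas+/- and was also named for P301S Cgas-/-. It was at 7.07 to 14 CPM with a median of 9.23 in P301S Cgas+/+, at 10.5 to 57.8 CPM with a median of 39.8 in P301S Cgas+/- and at 14.6 to 55.4 CPM with a median of 32.7 in P301S Cgas-/-. P301S Cgas-/- did not overlap P301S Cgas+/+, and 5 of 6 P301S Cgas+/- libraries lay above it. How many of all genes tested separated these groups was not counted. The log2 fold changes were 1.71 ± 0.42 for P301S Cgas-/- (edgeR adjusted p = 0.441) and 1.95 ± 0.42 for P301S Cgas+/- (adjusted p = 0.303). Stum, the mouse homologue of a fly gene of mechanosensory neurons, was at 31.8 to 68.8 CPM with a median of 40.4 in P301S Cgas+/+, at 11.8 to 38.4 CPM with a median of 19.1 in P301S Cgas+/- and at 12.7 to 41.7 CPM with a median of 22.1 in P301S Cgas-/-. In each group 5 of 6 libraries were below all P301S Cgas+/+ libraries, with log2 fold changes of -1.08 ± 0.22 and -0.95 ± 0.22 (edgeR adjusted p = 0.303 and 0.441). Nkain3 was at 130 to 275 CPM in P301S Cgas+/+ and 53.6 to 165 CPM in P301S Cgas+/- (-1.11 ± 0.23, edgeR adjusted p = 0.303). Rasgrf1, a guanine nucleotide exchange factor for RAS, was at 318 to 981 CPM and 237 to 465 CPM in the same groups (-0.81 ± 0.18, edgeR adjusted p = 0.303). Chst11, a chondroitin sulfotransferase, was at 71.5 to 196 CPM in P301S Cgas+/+, 58.6 to 88.9 CPM in P301S Cgas+/- and 48.3 to 100 CPM in P301S Cgas-/-. Ezh2, a histone methyltransferase, was at 8.25 to 18.8 CPM in P301S Cgas+/+ and 16.4 to 27.3 CPM in P301S Cgas-/- (0.65 ± 0.16, edgeR adjusted p = 0.441).

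Mef2c (chromosome 13, 83504034 to 83667080) was called in no comparison. It was at 90.6, 156, 184, 217 and 173 CPM in Cgas+/+, at 96.8 to 321 CPM with a median of 167 in P301S Cgas+/+, at 149 to 745 CPM with a median of 461 in P301S Cgas+/- and at 86.0 to 505 CPM with a median of 429 in P301S Cgas-/-. In both groups with fewer Cgas alleles, 5 of 6 libraries were above all P301S Cgas+/+ libraries, and in P301S Cgas-/- the remaining library was below all of them. The log2 fold changes against P301S Cgas+/+ were 1.03 ± 0.39 for P301S Cgas-/- (edgeR adjusted p = 0.640) and 1.25 ± 0.39 for P301S Cgas+/- (edgeR adjusted p = 0.407). In the tau comparison Mef2c had a log2 fold change of 0.16 ± 0.42 (edgeR adjusted p = 0.9999), which took a negative sign in 6 other settings, and over all 27 libraries 0.63 ± 0.34 (edgeR adjusted p = 0.805). Foxp2, whose UMIs chose the nuclei, had 0.12 ± 0.16 and 0.16 ± 0.12 in the same comparisons, which is a description with no test. Low shares of Syt6-positive nuclei and low Mef2c occurred together in these groups. P301S Cgas+/- replicate 5 had 11.1% and 149 CPM, and P301S Cgas-/- replicate 4 had 11.04% and 86.0 CPM. Within nuclei with a Syt6 UMI, the log2 fold changes of Mef2c were 0.49 for P301S Cgas-/- and 0.61 for P301S Cgas+/- (edgeR adjusted p = 0.9999 and 0.917). Within nuclei without one, they were 1.07 and 1.34 (edgeR adjusted p = 0.969 and 0.772). For Blnk they were 0.87 and 0.97 with a Syt6 UMI, and 1.64 and 2.01 without one. Syt6 itself had log2 fold changes of 1.16 ± 0.58 and 1.46 ± 0.57 in the full set, and Foxp2 had 0.31 ± 0.16 and 0.38 ± 0.16, again as a description of rule genes. In single nuclei, no UMI of a gene does not show that it is not expressed, and in subcluster 14 a Syt6 UMI was found in 68.0% of nuclei. The part of the mix of Syt6-positive and other nuclei in the Mef2c differences was not tested. The comparison of Mef2c with Rorb type nuclei is given below.

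**Figure D5:**
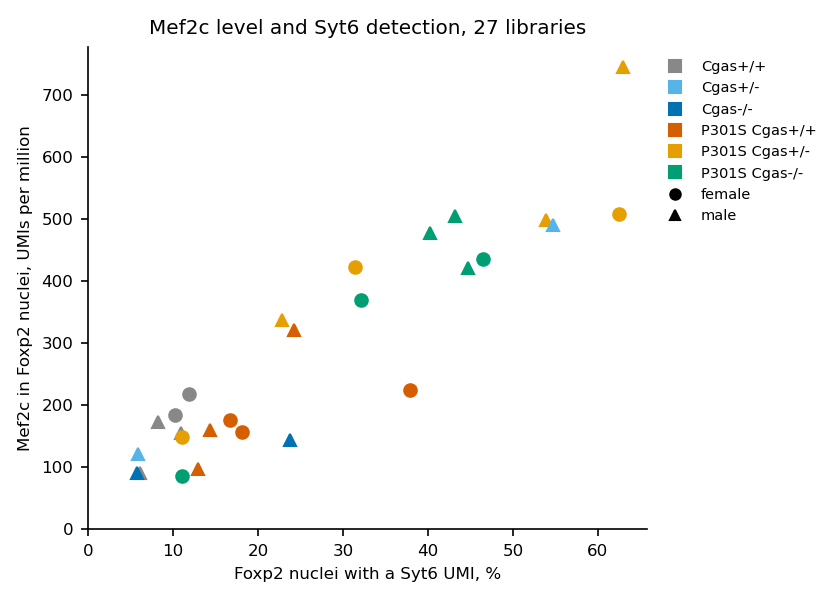
Mef2c level in Foxp2 nuclei (CPM) against the percentage of Foxp2 nuclei with a Syt6 UMI, 1 point per library, coloured by group, with circles for females and triangles for males. Libraries with over 40% Syt6-positive nuclei have Mef2c at 421 CPM or more, and P301S Cgas-/- replicate 4 lies at 11.04% and 86.0 CPM.

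No member of the other gene groups was called for P301S Cgas-/- or P301S Cgas+/-. Of 56 axon guidance and adhesion genes, 4 were higher and 9 lower at an unadjusted p under 0.05 for P301S Cgas-/-, and 8 higher and 10 lower for P301S Cgas+/-, with median log2 fold changes of -0.17 and -0.11 (the second was 0.038 within version 3.0.2). Among them, chosen after their values were seen, the ephrin receptor Epha3 had -0.91 ± 0.23 for P301S Cgas-/- (edgeR adjusted p = 0.442), and the neurexin Nrxn3 had 0.53 ± 0.16 for P301S Cgas+/- (edgeR adjusted p = 0.329). Of 14 synaptotagmins outside the rule, 2 (Syt7 and Syt12) were higher and 3 lower at that p for P301S Cgas+/-, and 0 for P301S Cgas-/-. Of 21 genes that the study named in excitatory neurons, a list chosen on these same libraries and therefore no independent evidence, 0 were called for P301S Cgas-/-, 4 were higher and 2 lower at an unadjusted p under 0.05, and the median log2 fold change was 0.12 against 0.02 over all genes. For P301S Cgas+/- 6 were higher and 2 lower, with a median of 0.15 (-0.032 in nuclei with a Syt6 UMI). The shares of all genes at that p were 3.21% higher and 3.61% lower for P301S Cgas-/-, and 3.79% and 4.13% for P301S Cgas+/-. Epha6, an ephrin receptor, was among the lower ones, with log2 fold changes of -1.05 ± 0.32 and -1.20 ± 0.32 (edgeR adjusted p = 0.520 and 0.323). Ncald, the calcium sensor neurocalcin delta, had 0.37 ± 0.11 and 0.32 ± 0.11 (edgeR adjusted p = 0.494 and 0.410). Of 12 activity-regulated genes, 10 were positive for P301S Cgas-/- with a median of 0.63 (55% of all genes were positive; the median was 0.187 with at least 100 nuclei per library and 1.65 without P301S Cgas+/+ replicate 1), led by Junb (1.46 ± 0.58, edgeR adjusted p = 0.658), and 5 were positive for P301S Cgas+/- with a median of -0.11 (54.3% of all genes), which ranged from -0.50 in nuclei with a Syt6 UMI to 0.57 without P301S Cgas+/+ replicate 1. Of 34 potassium channel genes, 1 was higher and 3 lower at an unadjusted p under 0.05 for P301S Cgas-/-, and 0 were called. Among 15 layer 6 corticothalamic genes outside the rule, 0 were called in any genotype comparison, and their medians were -0.08 for tau, 0.19 for P301S Cgas-/- and 0.14 for P301S Cgas+/-, with ranges over other settings of -0.20 to 0.012, -0.015 to 0.22 and -0.13 to 0.18.

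Whether effects differed between Foxp2 nuclei and another cortical class of the same mice was tested with the 8943 Rorb type nuclei. These had at least 2 UMIs of Rorb, a transcription factor of layer 4, and no Foxp2 UMI. They also met the limits on Prox1, Aqp4 and Gja1 given above. The interaction of class and genotype, fitted by edgeR with each library as a block, called 0 of 13126 genes (0%) for tau, for P301S Cgas-/- and for P301S Cgas+/-. At an unadjusted p under 0.05 there were 527, 1501 and 1661 genes (4.01%, 11.4% and 12.7%), and DESeq2 was not run on the interaction. The smallest adjusted p for P301S Cgas+/- was 0.0503, for Rasgrf1 (difference in log2 fold change -0.86 ± 0.16) and Pdlim1 (1.80 ± 0.33). The count for that comparison was 146 without P301S Cgas+/- replicate 5, and 3, 2 and 2 without P301S Cgas+/- replicate 2, P301S Cgas+/+ replicate 1 and P301S Cgas+/+ replicate 5. For P301S Cgas-/- it was 2 without P301S Cgas-/- replicate 4. Mef2c had a difference of 0.03 ± 0.24 for P301S Cgas-/- and 0.02 ± 0.24 for P301S Cgas+/- (edgeR adjusted p = 0.999 and 0.9996).

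Females and males differed in 366 of 12811 genes (2.86%), 63 (0.492%) higher and 303 (2.37%) lower in females (edgeR adjusted p; 1881 at an unadjusted p under 0.05, 574 by DESeq2). Xist and its antisense partner Tsix were higher in females, and Uty, Kdm5d, Eif2s3y and Ddx3y, genes of the Y chromosome, were higher in males. For Uty, males had 100 to 123 CPM and females had 2.65 CPM or less. All 12 libraries whose headers name software version 3.0.2 were male, and the other 15 name version 3.1.0. With the version as a covariate 9 genes were called, and within version 3.1.0 the 6 called were Xist, Tsix, Uty, Kdm5d, Eif2s3y and Ddx3y. Sex and header version were thus confounded in part, with 11 females and 4 males in version 3.1.0. Of the 20 genes named for this comparison, the other 14 were not called with the covariate. Ddx3x, an X-linked gene, then had a log2 fold change of 0.54 (edgeR adjusted p = 0.255), against 0.44 without it (edgeR adjusted p = 0.0167).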

How the data were processed

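The authors aligned reads of 10x Chromium 3' v3 libraries to mm10 with Cell Ranger 3.1.0, per their methods, counting pre-mRNA reads, and the deposited values are raw UMI counts per gene and called barcode; 12 file headers name version 3.0.2. The gene annotation release is not given in the sources used here. Nuclei came from DAPI-sorted suspensions. Positions are from GENCODE vM21 (GRCm38). The members and the 40 gene lists were chosen with earlier results of these data known. Genes were named if they belonged to the rule or a list, passed the threshold (the 10 of smallest p in each direction where more than 20 passed), or were among the 5 of smallest p in a direction with fewer than 5 calls, and as the 25 of highest ratio and the 5 leading genes of a subcluster; genes that differ by Syt6 detection were chosen after their values were seen. The values of 1 gene called in the tau comparison are not reported here.

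Counts of Foxp2 nuclei were summed per library, since nuclei of 1 mouse are not replicates (the study tested nuclei, with MAST). Sums were tested with edgeR 4.0.16 (R 4.3.3; TMM, filterByExpr, robust quasi-likelihood, sex as covariate) at a Benjamini-Hochberg adjusted p of 0.05, after a test on simulated data. DESeq2 1.42.0 was an alternative. Doublets were scored within libraries by Scrublet (scanpy 1.11.5) at 0.8% per 1000 barcodes and kept in the main analysis. Subclusters used 2000 variable genes, 20 principal components, 15 neighbours and resolution 0.5, with no correction between libraries. Replicates are numbered in accession order. Intervals cover counting error only.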

Additional observations from a re-analysis of the deposited data

Results flagged for a closer look

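In groups of 4 to 10 libraries, 3 levels lay far from the other libraries of their group by Dixon's criterion at 95%, among 40 combinations of measure and group examined, and chance marks about 1 in 20. Genes of the rule were left out of this test. In P301S Cgas-/- replicate 4 the Mef2c level was 86.0 CPM, with the others at 370 to 505 CPM. In the same library 11.04% of Foxp2 nuclei had a Syt6 UMI. The other 2 were Gm43049 in Cgas+/+ replicate 3, at 0.155 CPM from 1 UMI where the other 4 libraries had 0, and Cd34 in Cgas+/+ replicate 2, at 12.2 CPM where the others had 4.66 to 6.56 CPM. With 0 in the other 4 libraries, any Gm43049 UMI would have been flagged, so that flag carries no information.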

How the results depend on the processing

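Among single genes and lists, 1129 values under other settings and 1538 with 1 library left out kept their direction and call, 28 and 20 gained a call, 66 and 11 lost one, and 39 and 5 list medians moved by more than the spread between libraries. Genes called for tau numbered 7 with DESeq2, 0 in nuclei with a Syt6 UMI or within header version 3.0.2, and 1 in nuclei without one, with at least 100 nuclei, with at most 4000 genes, without likely doublets, without the sex covariate, under the stricter rule or within version 3.1.0. In all 27 libraries they numbered 17 with DESeq2, 7 with no low count filter, 2 without doublets, without a Syt6 UMI or under the stricter rule, and 1 with at most 4000 genes, with a Syt6 UMI or within either version. For P301S Cgas-/- they numbered 16 with DESeq2, 1 with a Syt6 UMI and 3 within version 3.1.0, and for P301S Cgas+/- 17 with DESeq2 and 4 within version 3.1.0. Sex calls numbered 574 with DESeq2, 9 with version as covariate, 108 with and 241 without a Syt6 UMI, 200 under the stricter rule and 6 within version 3.1.0. The interaction for P301S Cgas+/- gave 2 against Rorb type nuclei with at most 1 Slc1a3 UMI. Settings on version, Syt6, Slc1a3 and 100 nuclei were chosen after seeing the data. The cause of these changes was not tested.

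Some signs reversed. The tau difference in share was 3.80 points within version 3.0.2, against -2.31 points in all. Mef2c in the tau comparison was -0.00156 under the looser rule, -0.115 within version 3.1.0, -0.0019 with at least 100 nuclei, -0.183 without a Syt6 UMI, -0.0253 with Cgas+/+ replicate 1 left out and -0.0496 with P301S Cgas+/+ replicate 1 left out (range over single libraries left out -0.0496 to 0.319), and -0.115 over all libraries of version 3.1.0. Foxp2 was -0.0027 under the looser rule for tau and -0.0085 without a Syt6 UMI over all libraries.

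Leaving out single libraries gave 1 to 2 calls for tau, 3 to 7 over all libraries (7 without Cgas+/+ replicate 2 or Cgas+/- replicate 2), 0 to 6 for P301S Cgas-/- and 0 to 12 for P301S Cgas+/- (highest without P301S Cgas+/+ replicate 1), and for sex 125 to 514, with the lowest count when P301S Cgas-/- replicate 2 was left out. Share differences ran from -3.47 to -1.23 for tau, 4.52 to 7.12 for P301S Cgas-/- and 5.398 to 7.34 points for P301S Cgas+/-, and UMI differences from 619 to 1386, 458 to 1286 and 245 to 963. Interaction calls ran from 0 to 0 for tau, 0 to 2 for P301S Cgas-/- and 0 to 146 for P301S Cgas+/-. No paired analysis was possible because the labels give no replicate numbers. Depth limits the libraries with few Foxp2 nuclei, among them Cgas-/- replicate 1 with 21 and the 3 female P301S Cgas+/+ libraries with 29 to 78.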
